A study of Mus musculus with 9 samples.

Results

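The Id genes and the bone morphogenetic protein (BMP) signalling genes around them were followed in mouse embryonic fibroblasts of 3 Rb1 genotypes. Rb1 encodes the retinoblastoma protein, which restrains the E2F transcription factors. The 10 genes, chosen by symbol, were Id1, Id2, Id3, Id4, Smad6, Smad7, Bambi, Grem1, Bmp2 and Bmp4, among 19938 genes measured. Each had 1 probe set, a group of probes for 1 transcript, and all 10 entered the tests, which applied no filter on dim genes. The cells carried wild-type Rb1 (Rb +/+, called WT), were homozygous for an allele whose protein is altered where it contacts E2Fs (Rb ∆G/∆G, called ΔG), or lacked functional Rb1 (Rb -/-, called null). There were 3 arrays per genotype, 9 in all, and no other allele or agent is given. In all groups cells were plated at low density on 15 cm dishes and moved after 24 h to medium with 0.1% serum, so the WT arrays are controls in the same quiescence medium. The series text describes littermate matching but not which arrays belong together, and no label ties an array to an embryo. P-values therefore reflect only array-to-array spread, which could be partly technical.

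BMPs are secreted ligands that bring together type I and type II receptor kinases at the cell surface, which phosphorylate SMAD1, SMAD5 and SMAD9. These enter the nucleus with SMAD4 and switch on target genes, of which Id1, Id2 and Id3 are among the most direct. ID proteins are helix-loop-helix proteins without a DNA-binding basic region, and by pairing with E proteins they keep tissue-specific basic helix-loop-helix factors off DNA. ID2 also binds the retinoblastoma protein itself. Smad6 and Smad7 encode inhibitory SMADs that feed back on the receptors, Bambi a pseudoreceptor without a kinase, and Grem1 a secreted antagonist that binds BMP2 and BMP4.

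The windows around the transcription starts of Id2, Id3 and Id4 are shown because Id2 and Id3 were higher and Id4 lower in null cells. That of Smad6 is shown because it alone among the 6 member windows searched held the palindrome GTCTAGAC. RefSeq windows (GRCm38.p6) were searched for 6 members: Id2, Id3, Id4, Smad6, Grem1 and Bmp4. Windows of Id1, Smad7, Bambi and Bmp2 were not examined, so the member matches below do not cover them. Each searched window held 300 bases, from 250 before the start to 50 after it, and the stretches below run to 10 bases after the start, read 5′ to 3′ on the gene's strand, with motif matches in capitals.
Id2, chr12:25096083-25096342, minus strand: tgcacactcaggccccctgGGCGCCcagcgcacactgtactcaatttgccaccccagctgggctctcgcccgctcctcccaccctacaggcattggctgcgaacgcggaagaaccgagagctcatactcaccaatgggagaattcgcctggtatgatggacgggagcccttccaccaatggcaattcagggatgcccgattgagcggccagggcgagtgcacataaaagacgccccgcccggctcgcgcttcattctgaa
Id3, chr4:136143572-136143831, plus strand: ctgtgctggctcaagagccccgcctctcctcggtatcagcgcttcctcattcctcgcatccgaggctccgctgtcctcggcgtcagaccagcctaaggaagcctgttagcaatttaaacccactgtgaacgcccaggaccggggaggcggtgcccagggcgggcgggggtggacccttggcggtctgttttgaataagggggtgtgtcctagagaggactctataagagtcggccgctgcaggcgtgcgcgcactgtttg
Id4, chr13:48260866-48261125, plus strand: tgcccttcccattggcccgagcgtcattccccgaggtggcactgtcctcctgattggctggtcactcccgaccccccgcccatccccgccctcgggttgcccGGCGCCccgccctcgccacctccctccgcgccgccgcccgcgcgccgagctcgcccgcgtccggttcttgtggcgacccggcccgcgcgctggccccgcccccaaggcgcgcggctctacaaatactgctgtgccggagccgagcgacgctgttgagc
Smad6, chr9:64022050-64022309, minus strand: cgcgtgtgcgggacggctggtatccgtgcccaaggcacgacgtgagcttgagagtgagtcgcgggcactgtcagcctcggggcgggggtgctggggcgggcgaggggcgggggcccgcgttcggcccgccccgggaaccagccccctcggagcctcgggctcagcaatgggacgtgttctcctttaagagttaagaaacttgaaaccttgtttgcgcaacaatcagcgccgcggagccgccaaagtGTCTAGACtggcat
Both strands were searched for 6 motifs: GGCGCC, a GC-rich sequence that BMP SMADs bind, the SMAD palindrome GTCTAGAC, a spaced motif of GGCGCC and, after 5 bases, GTCT, the E2F sequences TTTGGCGC and TTTCGCGC, and TATAAA. TTTGGCGC followed by C overlaps GGCGCC, and the spaced motif contains it. GGCGCC began 231 bases before the start of Id2, 148 before that of Id4 and 78 before that of Grem1, and 11.9% of all 32851 windows held it. That share was not adjusted for base content. G and C made up 63.3%, 73.3% and 70.7% of the windows of Id2, Id4 and Grem1. The windows of Id3, Smad6 and Bmp4, without GGCGCC, held 60%, 66.3% and 64%, and the median of all windows was 52.7%. GTCTAGAC began 4 bases before the start of Smad6, and 0.213% of all windows held it. The windows of Id3 and Bmp4 held none of the 6. The other motifs, in 0.0731% (spaced), 0.514% (TTTGGCGC), 0.323% (TTTCGCGC) and 13.6% (TATAAA) of all windows, were in none of the member windows searched. The GC-rich letters stood in front of Id2, which was higher in null cells, and of Id4, which was lower. A match is a description of letters, not of binding.

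Expression is given as log2 signal after robust multi-array averaging (RMA), so a difference of 1 is a doubling, and signals of different genes are not on a common scale because their probes differ. Differences were tested with limma, a linear model that shares variance across genes, and a call means an adjusted p (Benjamini-Hochberg over all 19938 genes) under 0.05. Array medians lay between 6.33 and 6.4. Rb1 had a signal of 9.08 ± 0.13 in WT, 9.61 ± 0.13 in ΔG and 8.31 ± 0.23 in null (SD, n = 3 each), and probes outside a deleted part would still report RNA. On the first principal component ΔG replicate 3 stood apart from its group (−0.30, against −13.9 and −11.5), between the WT arrays (−21.3 to −14.7) and the null arrays (24.2 to 27.4). Xist was high (11.4 to 12.0) and Y-linked signal low in every null array and in WT replicate 3, with the reverse on the other 5 arrays (Xist 4.24 to 4.45), so sex pattern and genotype coincide between ΔG and null. Fibroblast markers had a mean signal of 11.55 to 11.87 in WT, 11.45 to 11.62 in ΔG and 10.92 to 11.09 in null, and 8 of 10 were called lower in null than in WT and 5 higher in ΔG than in null. Of 14 macrophage and leukocyte markers none was called in limma in any comparison. At an unadjusted p under 0.05 were 2 in ΔG minus WT (2343 of all 19938 genes), 0 in null minus WT (5989) and 8 in ΔG minus null (4606). All 14 had a higher mean in ΔG than in WT (median log2 difference 0.56) and than in null (0.78). The list means were 5.56 to 6.72 in WT, 5.97 to 7.41 in ΔG and 5.72 to 6.13 in null. The lists for endothelial, epithelial, neural, cartilage and bone, skeletal muscle and adipocyte cells had means between 5.49 and 6.36 on every array. Within that range the adipocyte means were 5.65 to 5.72 in WT, 5.66 to 5.78 in ΔG and 5.85 to 5.97 in null, with 2 of 5 called higher in null than in WT, as was 1 of 7 cartilage and bone markers, while 1 of 7 endothelial and 1 of 6 skeletal muscle markers were called lower. Smooth muscle markers had means of 9.13 to 9.80 in WT, 9.54 to 9.92 in ΔG and 8.49 to 9.05 in null, with 3 of 5 called lower in null than in WT and 3 of 5 higher in ΔG than in null. The part of these cell types in the results below was not tested, and in bulk RNA fewer cells of a type and less RNA per cell cannot be told apart.

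Without Rb1, Id1, Id2 and Id3 rose and Id4 fell, while the BMP ligands, the antagonist, the pseudoreceptor and the inhibitory SMADs among the 10 genes were not called against WT with all arrays in the fit. Of the 10 members, 4 were called in null minus WT, 3 higher and 1 lower, where 18.4% of all genes were called (8.38% higher and 10.1% lower). In ΔG minus WT none was called in limma, where 0.813% of all genes were called (0.602% higher and 0.211% lower). At an unadjusted p under 0.05 in ΔG minus WT were 5 of the 10 members, beside 2343 of all 19938 genes. In ΔG minus null 2 were called, both lower in ΔG, where 8.71% of all genes were called (4.44% higher and 4.27% lower). A moderated F test over the 3 genotypes called Id1, Id2 and Id3 (adjusted p = 0.0047, 0.027 and 0.012), where 15.3% of all genes were called. The median log2 difference over the members was 0.044 in ΔG minus WT, 0.22 in null minus WT and −0.093 in ΔG minus null, and over all genes −0.018, −0.010 and −0.0075. Without WT replicate 2, WT replicate 3, null replicate 1 or null replicate 3 the F test called 2 members. It called 4 without null replicate 2 and 5 without ΔG replicate 3. The members called in null minus WT became 2 without null replicate 1 and 5 without ΔG replicate 3. They were 3 without WT replicate 2, WT replicate 3, null replicate 2 or null replicate 3. The 2 members called in ΔG minus null became 0 without WT replicate 2, ΔG replicate 1, ΔG replicate 2, null replicate 1 or null replicate 3, 1 without WT replicate 1 or null replicate 2, and 3 without ΔG replicate 3.

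**Figure D1:**
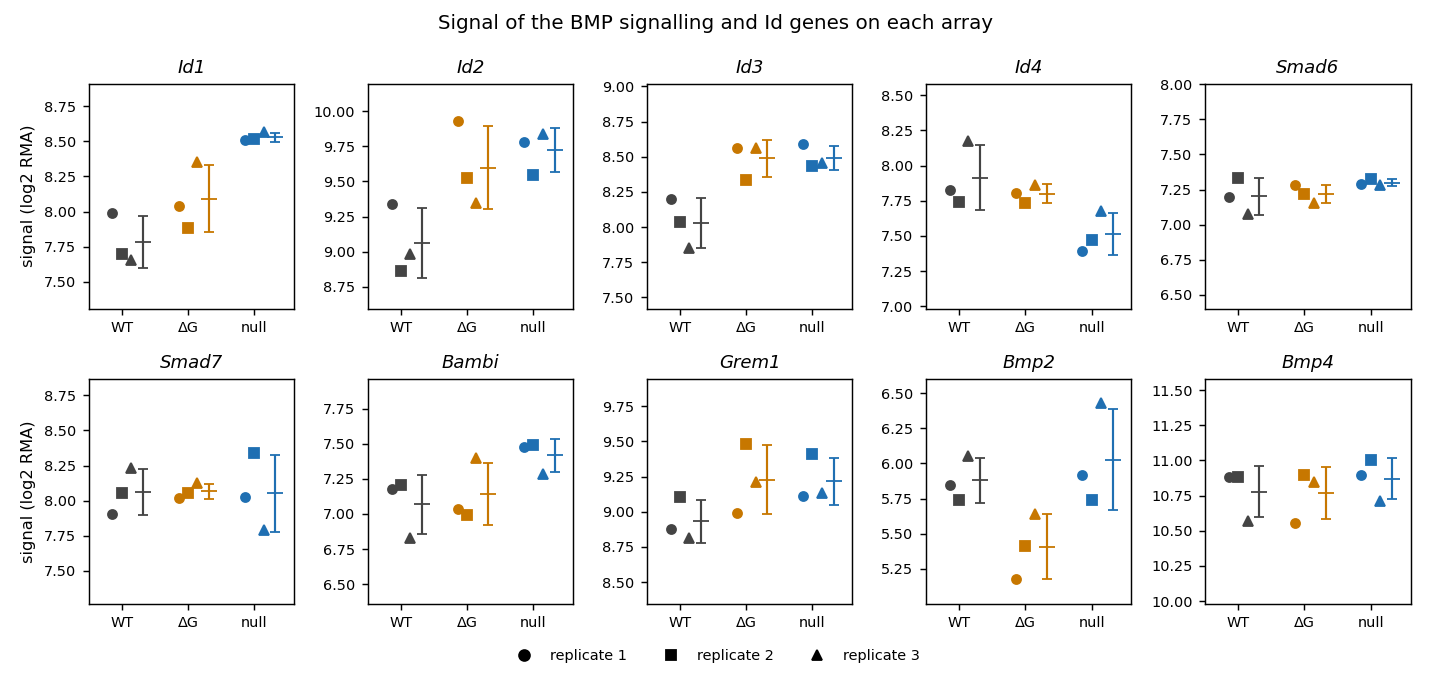
Signal of each gene (y axis, log2 RMA, every panel spanning the same 1.6 units) on the 9 arrays by genotype, with 1 symbol per array and the mean ± SD (n = 3) beside each group. All 3 null arrays lie above all WT arrays for Id1, Id2 and Id3 and below them for Id4, while Smad6, Smad7 and Bmp4 overlap among the genotypes.

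Id1, a direct BMP target in many cell types, had its lowest mean in WT and its highest in null, with ΔG between them. Its signal was 7.99, 7.70 and 7.65 on WT replicates 1, 2 and 3, 8.04, 7.89 and 8.35 on the ΔG arrays, and 8.51, 8.52 and 8.56 on the null arrays. The null arrays lay above all others and close together, WT and ΔG overlapped, and ΔG replicate 3 was the array nearest to null. Id1 rose 1.68-fold in null against WT (log2 difference 0.75, SE 0.12, adjusted p = 0.0015). The ΔG level exceeded WT by 0.31 (SE 0.12, adjusted p = 0.33), or 0.18 without ΔG replicate 3 (adjusted p = 0.54), so this difference did not pass. The null call held in all 18 alternative analyses, at log2 differences of 0.68 to 0.87, and against WT replicate 3, the WT array of the same sex pattern, the difference was 0.87 (adjusted p = 0.0098).

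Id2, whose protein can bind hypophosphorylated retinoblastoma protein, was higher in both mutant genotypes and passed in null. WT arrays read 9.34, 8.86 and 8.99, ΔG arrays 9.93, 9.52 and 9.35, and null arrays 9.78, 9.54 and 9.84. Every ΔG and null array lay above every WT array, although ΔG replicate 3 was only just above WT replicate 1, and ΔG and null overlapped. Id2 rose 1.58-fold in null (log2 difference 0.66, SE 0.16, adjusted p = 0.013). The ΔG level was 1.45-fold that of WT (0.54, SE 0.16, adjusted p = 0.17). The null call was lost without WT replicate 2, null replicate 1 or null replicate 3 (adjusted p = 0.055, 0.051 and 0.051), and at larger differences with the Y-linked genes as a covariate (0.75, adjusted p = 0.085) and against WT replicate 3 alone (0.73, adjusted p = 0.068).

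Id3, a close relative of Id1 in sequence and response, stood at nearly the same level in ΔG and null. WT arrays read 8.20, 8.03 and 7.85, ΔG arrays 8.56, 8.34 and 8.56, and null arrays 8.59, 8.43 and 8.46. Both mutant groups lay wholly above WT and overlapped with each other. Id3 rose 1.38-fold in null (0.47, SE 0.10, adjusted p = 0.0080), a call that held in all 18 alternatives. The ΔG difference from WT was as large in value, 0.46 (SE 0.10, adjusted p = 0.068), and missed the threshold, which it passed without WT replicate 1 (0.55, adjusted p = 0.048). ΔG minus null was −0.0056, with a 95% interval of −0.23 to 0.22.

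Id4, better known from neural and mammary progenitors than as a BMP target, went the other way. WT arrays read 7.82, 7.74 and 8.18, ΔG arrays 7.81, 7.73 and 7.86, and null arrays 7.39, 7.47 and 7.68. The null arrays were the lowest and did not overlap with either other group, while WT and ΔG overlapped. Id4 fell by 0.40 on the log2 scale in null (SE 0.11, adjusted p = 0.031) and stood 0.11 below WT in ΔG, a log2 difference of −0.11 (SE 0.11, adjusted p = 0.78). Its null call was lost without WT replicate 3 (−0.27, adjusted p = 0.091), null replicate 1 (−0.34, 0.12) or null replicate 2 (−0.38, 0.087). The difference was −0.69 with the Y-linked genes as a covariate (adjusted p = 0.0098) and −0.66 against WT replicate 3 alone (adjusted p = 0.0083).

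All 4 Id genes had null arrays that did not overlap with WT, where 34.7% of all genes did so, and Id2 and Id3 had ΔG arrays apart from WT, where 16.5% did. After each group's mean was removed, Id1 and Id3 still varied together over the 9 arrays (Pearson r = 0.71), Id2 and Id3 less (0.46), and Id1 and Id2 hardly (0.08), as a description of arrays that share 3 genotypes and 1 processing. Id1 and Bambi gave 0.70 on the same measure.

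The genes whose signal ran most like Id1 over the 9 arrays, among 17094 named genes outside the members, were Phf19, a Polycomb-associated histone reader (Pearson r = 0.99), H1f10, a linker histone (0.99), and Ticrr, which starts replication origins (0.98). Without the 2 arrays farthest from the median of Id1 the values were 0.99, 0.99 and 0.98. With group means removed they were 0.97, 0.96 and 0.94, and all 3 genes were higher in null than WT (0.69, 0.81 and 1.21, adjusted p = 0.0019, 0.0017 and 0.0013). Most like Id2 were Slc38a4, an amino acid transporter, F2rl3, a thrombin receptor, and Spag16, of sperm tails (0.96, 0.95 and 0.94), and most like Id3 were Fuom, of fucose metabolism, the peroxiredoxin Prdx4 and the exonuclease Trex1 (0.96, 0.96 and 0.95). The top genes of the 3 members did not coincide. With 9 arrays and so many genes compared, high values are selected by the ranking itself and carry no test.

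**Figure D2:**
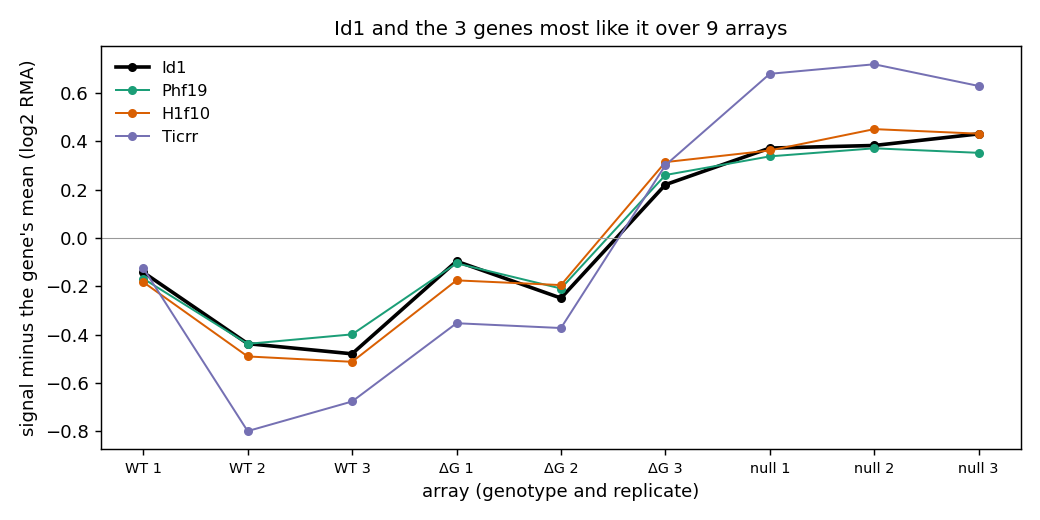
Signal of Id1, Phf19, H1f10 and Ticrr on each array (x axis, genotype and replicate), as log2 RMA minus the gene's mean over the 9 arrays (y axis). The 4 lines are low on the WT arrays, higher at ΔG replicate 3 and are highest on the null arrays.

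The inhibitory SMADs gave no call in any comparison, with 0 of 2 at an unadjusted p under 0.05 in limma. Smad6, an inhibitory SMAD that acts mainly on BMP receptors, read 7.20, 7.33 and 7.07 in WT, 7.28, 7.22 and 7.15 in ΔG and 7.29, 7.33 and 7.28 in null. Its groups overlapped, with differences from WT of 0.017 in ΔG (95% interval −0.15 to 0.19) and 0.098 in null (−0.074 to 0.27). Smad7, which acts on TGF-beta as well as BMP receptors, read 7.91, 8.05 and 8.23 in WT, 8.02, 8.06 and 8.12 in ΔG and 8.02, 8.34 and 7.79 in null. The null arrays spanned the widest range and covered both other groups, and the differences from WT were 0.0031 (−0.27 to 0.28) and −0.011 (−0.29 to 0.27). Adjusted p-values for both genes were 0.46 to 1.00 against WT.

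Bambi, the pseudoreceptor that blocks ligand-induced receptor pairing, was highest in null. It read 7.18, 7.21 and 6.83 in WT, 7.04, 6.99 and 7.40 in ΔG and 7.47, 7.49 and 7.28 in null. The null arrays lay above the WT arrays, and ΔG replicate 3 reached into the null range. The null difference of 0.35 (SE 0.13) did not pass (adjusted p = 0.085), and the ΔG difference was 0.071 (SE 0.13, adjusted p = 0.90). Bambi passed in null minus WT without ΔG replicate 3 (0.35, adjusted p = 0.041) and against WT replicate 3 alone (0.59, adjusted p = 0.037).

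The secreted members gave 1 call, for Bmp2 between the mutants. Grem1, the antagonist that traps BMP2 and BMP4 outside the cell, read 8.87, 9.11 and 8.81 in WT, 8.99, 9.48 and 9.21 in ΔG and 9.11, 9.41 and 9.13 in null. The null arrays lay just above WT, and the ΔG arrays overlapped with WT. Grem1 stood 0.30 above WT in ΔG and 0.29 above it in null (SE 0.13 each, adjusted p = 0.40 and 0.16). Bmp4, a ligand of fibroblasts and limb mesenchyme, read 10.88, 10.88 and 10.57 in WT, 10.55, 10.90 and 10.84 in ΔG and 10.89, 11.01 and 10.71 in null. Its groups overlapped throughout, with differences from WT of −0.011 in ΔG (95% interval −0.27 to 0.25) and 0.094 in null (−0.17 to 0.36).

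Bmp2, a potent inducer of bone and cartilage, was lowest in ΔG. It read 5.85, 5.74 and 6.06 in WT, 5.18, 5.41 and 5.64 in ΔG and 5.92, 5.74 and 6.43 in null. This signal was low, with a mean at percentile 35.4 of all genes. As no detection calls were used, whether it stood above background was not tested. The ΔG arrays lay below all others, and WT and null overlapped. Bmp2 was 1.54-fold lower in ΔG than in null (log2 difference −0.62, SE 0.17, adjusted p = 0.043). Against WT the ΔG difference was −0.47 (SE 0.17, adjusted p = 0.28) and the null difference 0.15 (SE 0.17, adjusted p = 0.63), so neither passed. The call between the mutants was lost in 8 of 16 alternatives: without WT replicate 1 or 2 (adjusted p = 0.058 and 0.052), ΔG replicate 1 or 2 (0.17 and 0.12), or null replicate 1 or 3 (0.091 and 0.12), with a variance trend and robust fit (0.058), and with only the ΔG and null arrays in the fit (0.059).

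The comparison of the 2 mutants set the loss of an E2F contact against the loss of the whole protein. Id1 was the other member called there, 1.35-fold lower in ΔG than in null (−0.44, SE 0.12, adjusted p = 0.046), with arrays that did not overlap. That call was lost without WT replicate 2 (adjusted p = 0.057), ΔG replicate 1 or 2 (0.15 and 0.17), any 1 of null replicates 1, 2 and 3 (0.12, 0.096 and 0.12), and with median centring (0.055). Without ΔG replicate 3 it was −0.57 (adjusted p = 0.0057). Id4 stood 0.29 above null in ΔG, also without overlap (SE 0.11, adjusted p = 0.15), and Id2 and Id3 differed by −0.12 and −0.0056 (95% intervals −0.46 to 0.22 and −0.23 to 0.22). Of the 10 members 3 had ΔG and null arrays apart, where 27% of all genes did, and as sex pattern and genotype cannot be told apart here, the comparison has no analysis within a sex pattern.

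**Figure D3:**
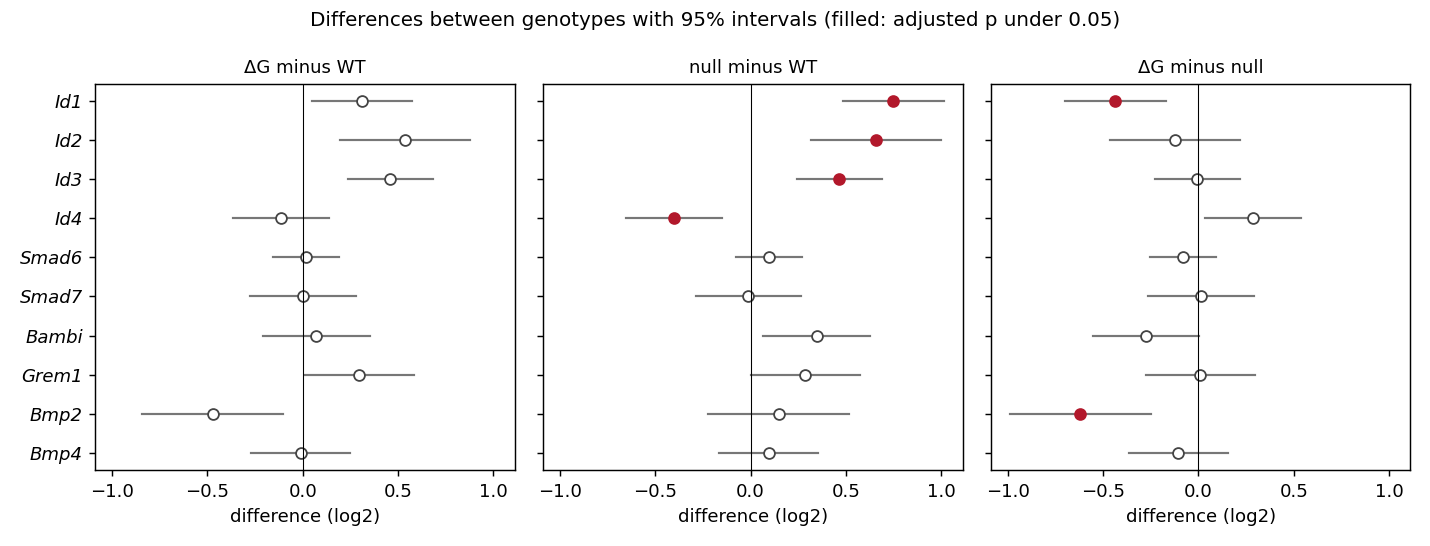
Differences between genotypes (x axis, log2) for the 10 genes (y axis), as limma estimates with 95% intervals, filled where the adjusted p is under 0.05. Id1, Id2, Id3 and Id4 are filled in null minus WT, none in ΔG minus WT, and Id1 and Bmp2 in ΔG minus null.

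The rest of the pathway was read from 7 lists holding 67 genes, of which 64 were measured. In null minus WT 12 were called, 3 higher and 9 lower, with a median of 0.0041. That is 18.8% of the 64, beside 18.4% of all genes, so the count is at the background and the genes below are given as single results. In ΔG minus WT none was called in limma (median −0.022), and without ΔG replicate 3 or null replicate 2 the count of calls was 6 or 1. With all arrays in the fit, 10 of the 64 had an unadjusted p under 0.05 in ΔG minus WT, beside 2343 of all 19938 genes. In ΔG minus null 10 were called, 7 higher and 3 lower (15.6% of the 64, beside 8.71% of all genes, median 0.011), a count of 3, 4, 3 and 3 without ΔG replicate 1, ΔG replicate 2, null replicate 1 or null replicate 3 and 16 without ΔG replicate 3. The null count was 4 with the Y-linked genes as a covariate and 5 against WT replicate 3 alone.

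Among 12 other ligands 2 fell in null and none rose. Bmp6, a ligand best known from iron control in the liver, was 1.83-fold lower in null (−0.87, SE 0.11, adjusted p = 0.00027) and 0.43 below WT in ΔG (SE 0.11, adjusted p = 0.11), a log2 difference of −0.43 that passed without null replicate 2 (adjusted p = 0.023). Bmp3, an atypical ligand that opposes other BMPs in bone, read 8.27, 8.22 and 8.07 in WT, 6.55, 6.16 and 7.84 in ΔG and 6.98, 6.74 and 6.91 in null. Every mutant array lay below every WT array, and ΔG replicate 3 was far above the other ΔG arrays. Bmp3 was 2.48-fold lower in null (−1.31, SE 0.31, adjusted p = 0.013), and the ΔG difference of −1.34 did not pass (adjusted p = 0.090) but was −1.83 without ΔG replicate 3 (adjusted p = 0.00011). Its null call was lost with the Y-linked covariate (−1.30, adjusted p = 0.14), against WT replicate 3 alone (−1.20, 0.14) and with a variance trend and robust fit (0.055).

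Among 11 receptors and co-receptors 2 fell in null and none rose. Rgmb and Rgma, membrane-anchored co-receptors of BMP ligands, were 1.60-fold and 1.45-fold lower (−0.68 and −0.54, SE 0.086 and 0.11, adjusted p = 0.00034 and 0.0047). In ΔG the differences from WT were −0.091 and −0.29 (adjusted p = 0.77 and 0.30). Rgma was not called with the Y-linked covariate (−0.30, adjusted p = 0.20) or against WT replicate 3 alone (−0.30, 0.14). The 4 SMADs that carry the signal held no call in limma in any comparison. At an unadjusted p under 0.05 in ΔG minus WT was 1 of the 4, beside 2343 of all 19938 genes. The lowest p in null belonged to Smad9, at 0.16 above WT (SE 0.083, adjusted p = 0.23). Nor was any of 8 intracellular modulators called, with none at an unadjusted p under 0.05, and Tob1, an antiproliferative SMAD partner, was 0.17 above WT in null (adjusted p = 0.38).

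Of 15 measured extracellular modulators other than Grem1, 3 fell and 1 rose in null. Bmp1, a procollagen protease that also cleaves the antagonist chordin, was 1.51-fold lower, and the follistatin relatives Fstl1 and Fstl3 were 1.52-fold and 1.66-fold lower (−0.59, −0.61 and −0.73, adjusted p = 0.0016, 0.0033 and 0.0094). Chrd, which encodes chordin, rose 1.29-fold (0.37, SE 0.079, adjusted p = 0.0074). None of the 4 passed in ΔG minus WT (−0.16, −0.14, 0.17 and 0.041). With the Y-linked covariate Bmp1, Fstl1 and Fstl3 were not called (−0.41, −0.31 and −0.50, adjusted p = 0.080, 0.16 and 0.24), nor were Fstl1 and Fstl3 against WT replicate 3 alone (−0.35 and −0.55, adjusted p = 0.097 and 0.16). Bmp1, Fstl1 and Fstl3 were called lower in null, as were other pathway genes and 8 of 10 fibroblast markers. Whether these falls are linked was not tested.

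Of 8 measured BMP-responsive transcription factors 2 rose in null and none fell. Atoh8, a basic helix-loop-helix factor induced by BMP in endothelium and liver, rose 1.38-fold (0.46, SE 0.11, adjusted p = 0.015) and was 0.49 above WT in ΔG (adjusted p = 0.086), where it passed without ΔG replicate 3 (0.59, adjusted p = 0.035). Its null call was lost without WT replicate 3, null replicate 1 or null replicate 3 (adjusted p = 0.055, 0.064 and 0.060). Dlx2, a homeobox factor, rose 1.34-fold (0.42, SE 0.12, adjusted p = 0.034), and was not called without any 1 of WT replicates 1, 2 and 3 (adjusted p = 0.11, 0.059 and 0.066) or null replicates 1 and 2 (0.11 each), with the Y-linked covariate (0.28) or against WT replicate 3 alone (0.21). Of 6 measured helix-loop-helix partners and competitors of ID proteins, Twist2 and Twist1, mesenchymal factors that pair with E proteins, fell in null (−0.51 and −0.46, SE 0.10 and 0.11, adjusted p = 0.0049 and 0.011), and the E protein genes Tcf3, Tcf4 and Tcf12 were not called. Twist2 and Twist1 lost their calls with the Y-linked covariate (−0.50 and −0.47, adjusted p = 0.080 and 0.12) and against WT replicate 3 alone (−0.51 and −0.43, 0.054 and 0.12). In ΔG they stood at −0.00036 and −0.22 from WT (adjusted p = 1.00 and 0.47).

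**Figure D4:**
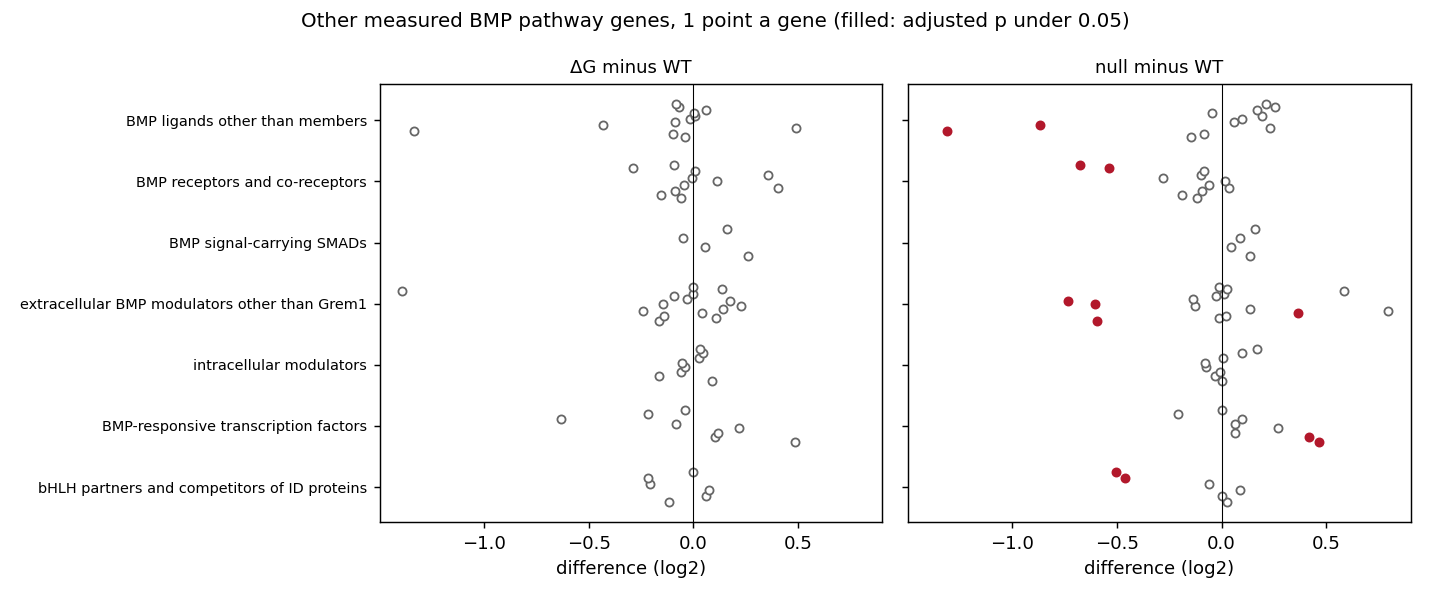
Differences from WT (x axis, log2) of the 64 other measured pathway genes, 1 point a gene, in 7 lists by role (y axis), for ΔG on the left and null on the right, filled where the adjusted p is under 0.05. No point is filled for ΔG, and 12 are filled for null, of which 9 lie below 0.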

How the data were processed

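RNA of 9 fibroblast cultures was measured on Affymetrix whole-transcript mouse arrays. The deposited table holds log2 values that the authors made with RMA (BRB-ArrayTools per the series text, RMA and affy per the submitters' processing notes). Tool versions, the annotation and the build: not given in the sources used here. No detection calls were used. Of 35512 probe sets 21789 had exactly 1 symbol in the platform annotation. The probe set with the highest mean over all arrays stood for a gene.

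All arrays entered 1 limma fit (limma 3.58.1, R 4.3.3) that estimated 3 genotype means, with default eBayes and 6 residual degrees of freedom, and the script was tested on simulated data. The number of arrays limits the precision. Markers and pathway lists came from general knowledge. Named genes are the members, Rb1, per list at most 4 genes called against WT or else the lowest p in null, and the 3 genes most like each member that the F test called. Members and lists were chosen with earlier results of these data known. Alternatives were the array number as a block, each array left out, quantile normalisation, median centring, the dimmest 25% of genes removed, mean probe sets, variance trend, 2 groups only, and 2 analyses of sex pattern using 3 measured Y-linked genes or WT arrays of the same pattern.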

Additional observations from a re-analysis of the deposited data

How the results depend on the processing

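None of the 30 calls for the named genes changed sign under any alternative run. The 1456 values under alternatives cover 84 results, each a gene in a comparison, called or not. Only values of the 30 called results could lose a call, and 78 did. Among values of the uncalled results 19 gained one. With the array number as a block, the members called were 1 in ΔG minus WT (Id3, adjusted p = 0.047) and 6 by the F test, and Grem1 passed in null minus WT (adjusted p = 0.030). The numbers were not taken to pair the arrays, since the labels tie no number to a litter. Correlations of same-numbered arrays' deviations ran from −0.084 to 0.27. Each array's deviations were also compared with all arrays of the other genotypes, whatever their number, and 6 of 9 matched their own number best. That count was not compared with what unrelated numbers would give. These values therefore cannot decide whether numbers pair arrays. Members called in ΔG minus null were 1 with median centring, 1 with a variance trend and robust fit, and 1 with only the 2 groups. With the Y-linked covariate, null minus WT called 1580 of all genes and 4 of the other pathway genes, and against the WT array of the same sex pattern 2010 and 5; that single array was assumed to vary like the others.

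Leaving out 1 array gave 0 to 1 members called in ΔG minus WT, 2 to 5 in null minus WT, 0 to 3 in ΔG minus null and 2 to 5 by the F test. The other pathway genes called were 0 to 6, 10 to 14 and 3 to 16 in that order of comparisons, and all genes called were 62 to 252 (162 with all arrays), 2546 to 3895 (3678) and 762 to 2408 (1737). The count of 162 was 62, 70, 83, 91 and 252 without WT replicate 2, ΔG replicate 2, ΔG replicate 1, null replicate 1 and ΔG replicate 3, and the count of 1737 was 762, 847 and 885 without ΔG replicate 1, null replicate 1 and ΔG replicate 2. The cause of these differences was not tested.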

Other observations

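Beyond the genes above, 3 pathway genes were called in ΔG minus null but not against WT with all arrays in the fit, and are named after their values were seen. Sostdc1, a secreted antagonist of BMP and WNT ligands, read 8.30, 7.78 and 7.52 in WT, 5.77, 5.81 and 7.84 in ΔG and 8.51, 8.08 and 8.77 in null. ΔG replicates 1 and 2 were far below every other array and ΔG replicate 3 lay among the WT arrays. The difference from null was −1.98 (SE 0.45, adjusted p = 0.020) and from WT −1.39 (adjusted p = 0.23), or −2.07 without ΔG replicate 3 (adjusted p = 0.0016). Chrdl1, a chordin relative, was 2.05-fold lower in ΔG than in null (adjusted p = 0.030). In null it stood 0.79 above WT (adjusted p = 0.053), and this passed in 5 of 18 alternatives: with the array number as a block (0.0070), without WT replicate 3 (0.94, 0.048), ΔG replicate 3 (0.039) or null replicate 2 (1.11, 0.0069), and with the dimmest genes removed (0.049). Eng, an endothelial co-receptor also found in stromal cells, was 1.37-fold higher (adjusted p = 0.032). All 3 calls in ΔG minus null were lost without ΔG replicate 1, ΔG replicate 2, null replicate 1 or null replicate 3, at adjusted p-values of 0.074 to 0.12, Sostdc1 and Chrdl1 also with a variance trend and robust fit (0.098 and 0.076), and Eng with only the 2 groups compared (0.054).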
